A study of Homo sapiens with 30 samples.

Results

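Nascent transcription of 9 genes of blood clotting, complement and the acute phase response was examined in A549, an established line from a human lung adenocarcinoma. The genes were FGA, FGB and FGG (the chains of fibrinogen), SERPINA1 and SERPINA3 (protease inhibitors), CFB and C3 (complement), SAA1 (serum amyloid A) and LCN2 (lipocalin 2). They are 9 of the 58780 genes in the deposited count table, were matched by name, and 7 of them passed the filter on low counts that kept 22919 genes for testing. SERPINA1 and SAA1 did not pass and are given by their counts alone. The set was chosen by name with earlier results of these data known, and FGA in particular was selected on its rise after 7 days of MS023 against untreated cells. The comparison of MS023 at 7 days with untreated cells is therefore a description here, with no test.

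The assay was precision run-on sequencing (PRO-seq), in which RNA polymerases already on the DNA run on with tagged nucleotides, and the new RNA is then sequenced to read out transcription under way. The agents were 100 nM dexamethasone (Dex, which activates the glucocorticoid receptor), 1 µM GSK591, which blocks the methyltransferase PRMT5, and 1 µM MS023, which blocks Type I protein arginine methyltransferases, alone, mixed or in sequence. The 15 groups were untreated cells; Dex for 15 min; Dex for 3 h; Dex with GSK591 for 3 h; Dex with MS023 for 3 h; GSK591 for 2, 4 or 7 days; MS023 for 2, 4 or 7 days; GSK591 for 7 days and then Dex for 15 min or 3 h; and MS023 for 7 days and then Dex for 15 min or 3 h. Each group had 2 libraries, 30 in all, and every library, the untreated ones included, is labelled with 0.01% DMSO. Each library is a bulk sample of this 1 cell line. The 1 untreated group served as the control for every treatment time. Its library titles name it untreated at 15 min, and the series has no untreated group for the longer times. Time in culture was therefore not tested apart from treatment. The labels do not say whether the 2 libraries of a group came from separate cultures, so p-values measure the spread between these libraries, which may be technical.

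Fibrinogen is a complex of the FGA, FGB and FGG chains that thrombin turns into the fibrin of a clot, and its genes lie side by side. Liver cells are the main source of fibrinogen and of the other acute phase proteins, which rise in plasma during inflammation, and lung epithelial cells can make several of them too. In liver cells, cytokines of the interleukin-6 family and glucocorticoids are known to raise acute phase genes together, through STAT3, C/EBP factors and the glucocorticoid receptor.

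Total counts per library ran from 8441211 to 13069598, of which mitochondrial genes took 58.7% to 78.7%. Their share moved with treatment, at 76.0% and 73.4% in untreated cells, 64.9% and 66.1% in MS023 at 4 days, 58.7% and 59.6% in MS023 at 7 days, and 73.7% and 78.7% in GSK591 at 7 days. With mitochondrial and ribosomal RNA genes left out before scaling, each single-gene result kept its direction and its side of the threshold. Nuclear genes outside mitochondrial pseudogenes and ribosomal RNA genes had 1914493 to 3508837 counts. Levels are given as CPM, counts scaled to a common library size. The log2 values of paired libraries within a group had a Pearson's r, over 11117 genes, of 0.923 in Dex with MS023 and 0.959 to 0.983 in the other groups, and the 2 libraries of Dex with MS023 therefore stood apart from each other most. All 8 markers of A549 and epithelial cells averaged at least 1 CPM, with a summed level of 836 to 1637 CPM. Of 8 hepatocyte markers 1 did (APOA1), and their sum ran from 1.38 to 5.44 CPM, with ALB at 0.152 CPM and TTR at 0.0844 CPM. Of 5 leukocyte markers, CSF1R (10.95 CPM) and CD14 (2.56 CPM) averaged at least 1 CPM, while PTPRC averaged 0.136 CPM. The fibroblast markers had 1 of 5 at that level (COL1A1), the endothelial ones 0 of 3, and the alveolar type II ones 4 of 7, with NKX2-1 at 0.183 CPM.

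FGA had the highest level per exonic length of the 9 genes, 3.71 CPM per kb averaged over the 30 libraries. CFB followed with 1.52, LCN2 with 0.865, C3 with 0.638, FGB with 0.589, SAA1 with 0.511 and FGG with 0.427 CPM per kb. SERPINA3 stood at 0.0946 and SERPINA1 at 0.0600 CPM per kb, and both had a median of at most 4 counts per library.

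The 7 testable genes are summarised first by comparison, beside the share of all 22919 genes that passed an adjusted p of 0.05 in the same comparison (edgeR, quasi-likelihood, adjusted by the Benjamini-Hochberg method). After 4 days of GSK591, 4 of the 7 genes rose against untreated cells (FGA, FGB, FGG and C3), where 17.2% of all genes were called. After 4 days of MS023, the same 4 of 7 rose, against 14.2% of all genes. After 2 days of MS023, 3 of 7 rose (FGA, FGB and FGG), against 10.4%. After 2 days of GSK591, 1 of 7 rose (FGA), against 5.64%. After 7 days of GSK591, 2 of 7 rose (FGA and C3), against 13.2%. No gene of the 7 fell against untreated cells in any of these comparisons, which share the untreated libraries, also used to select FGA. FGB and FGG passed the filter on low counts only through libraries given an inhibitor. Their calls against untreated cells are therefore not independent of the filter.

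Dex alone raised 1 of 7 genes at 15 min (FGA), where 1.26% of all genes were called, and 2 of 7 at 3 h (FGA and C3), where 10.5% were. Adding GSK591 to Dex for 3 h changed 0 of 7 genes against Dex alone, and 0% of all genes were called by edgeR. In that comparison 1306 of 22919 genes had an unadjusted p below 0.05, and DESeq2 also called 0 of the 7 genes. Adding MS023 to Dex for 3 h changed 0 of 7, against 0.196% of all genes. After 7 days of GSK591, Dex for 15 min raised 1 of 7 genes (FGA) against 2.09% of all genes called. There Dex for 3 h changed 4 of 7 (FGA, SERPINA3 and C3 higher, LCN2 lower) against 9.85%. SERPINA3 passed the filter on low counts only through the groups of GSK591 followed by Dex, so its call is not independent of the filter. After 7 days of MS023, Dex for 15 min raised 1 of 7 (FGA) against 2.07%, and Dex for 3 h raised 1 of 7 (C3) against 11.1%. FGA was selected on the libraries of MS023 at 7 days, so its results after MS023 are not independent of that choice.

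Both inhibitors were given at 1 µM, so they were compared at each time. At 2 days 1 of 7 genes differed (FGA, lower in GSK591), against 2.69% of all genes. At 4 days 2 of 7 differed (FGA and LCN2, both lower in GSK591), against 6.03%. At 7 days, where FGA is not tested because it was selected on the MS023 libraries, 1 of 6 differed (C3, higher in GSK591), against 9.38%. The response to Dex at 3 h after 7 days of inhibitor was also set against that without inhibitor, as an interaction. With GSK591 0 of 7 genes differed in response and with MS023 0 of the 6 genes other than FGA did, and 0.223% of all genes were called in each. The interaction with MS023 contains the comparison on which FGA was selected, so FGA is not tested in it. For the interaction with GSK591, FGA had an unadjusted p below 0.05 and DESeq2 called 0 of the 7. That FGA value contains the untreated libraries used to select it, so it is not independent of the selection. For the interaction with MS023, 0 of the 6 had an unadjusted p below 0.05 and DESeq2 called 0 too.

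**Figure D1:**
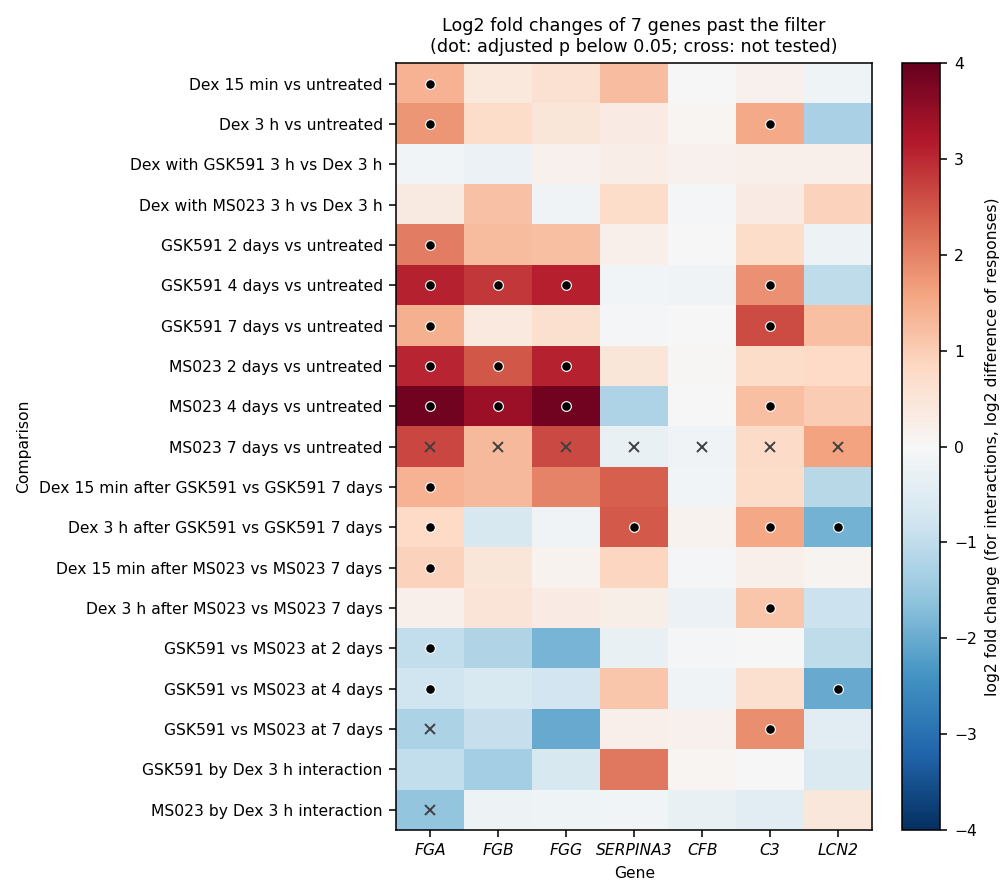
Log2 fold changes (colour) of the 7 testable genes (x axis) in 19 comparisons (y axis). Interactions are log2 differences between 2 responses. Dots mark genes with an adjusted p below 0.05 and crosses mark values given with no test. The 3 fibrinogen genes are reddest after 4 days of MS023, C3 after 7 days of GSK591, and CFB is pale throughout.

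The fibrinogen genes lie on chromosome 4 in the order FGB, FGA, FGG (build hg38, GENCODE 29). FGB (ENSG00000171564.11) spans 154562956 to 154571086 on the plus strand in 8 exonic blocks. FGA (ENSG00000171560.14) spans 154583126 to 154590766 on the minus strand in 6 blocks, 12.0 kb beyond FGB. FGG (ENSG00000171557.16) spans 154604134 to 154612967 on the minus strand in 6 blocks, 13.4 kb beyond FGA. No exon of the 3 overlaps another annotated gene. Whether reads outside exons were counted is not given. The 3 genes all rose after 4 days of either inhibitor, while with Dex at 3 h only FGA of the 3 passed. For display, the 250 bases before each RefSeq start (GRCh38.p14) are shown. They come from chr4:154562730-154562979 on the plus strand for FGB, chr4:154590743-154590992 on the minus strand for FGA, and chr4:154612657-154612906 on the minus strand for FGG. Capitals mark matches, on either strand, to a C/EBP motif (TTGCNNAA), a STAT motif (TTCNNNGAA), the interleukin-6 element CTGGGAA and an HNF1 half-site (GTTAAT).
FGB: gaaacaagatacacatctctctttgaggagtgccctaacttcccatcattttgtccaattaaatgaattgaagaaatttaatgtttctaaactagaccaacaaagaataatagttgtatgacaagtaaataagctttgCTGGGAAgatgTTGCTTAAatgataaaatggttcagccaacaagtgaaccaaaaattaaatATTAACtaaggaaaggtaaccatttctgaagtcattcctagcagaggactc
FGA: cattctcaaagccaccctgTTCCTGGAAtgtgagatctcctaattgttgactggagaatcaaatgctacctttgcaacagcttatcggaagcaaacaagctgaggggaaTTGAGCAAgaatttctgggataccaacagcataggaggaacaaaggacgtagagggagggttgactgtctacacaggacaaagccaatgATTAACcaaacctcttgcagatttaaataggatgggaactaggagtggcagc
FGG: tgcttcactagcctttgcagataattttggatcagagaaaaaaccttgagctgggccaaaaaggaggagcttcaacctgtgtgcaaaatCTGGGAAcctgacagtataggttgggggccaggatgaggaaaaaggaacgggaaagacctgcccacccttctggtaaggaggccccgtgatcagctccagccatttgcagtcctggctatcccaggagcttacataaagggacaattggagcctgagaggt

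The FGB window held the interleukin-6 element from -112, a C/EBP match from -101 and an HNF1 half-site from -51, with positions counted back from the start site. The FGA window held a STAT match from -231, a C/EBP match from -141 and an HNF1 half-site from -52. The FGG window held the interleukin-6 element from -161. Of 34943 RefSeq windows of this length, 9.06% held the C/EBP motif, 6.56% the STAT motif, 9.16% the interleukin-6 element and 6.24% the HNF1 half-site. A glucocorticoid receptor half-site (TGTTCT, in 12.4% of windows) and a TATA motif (TATAAA, in 10.8%) were searched too and had no match in these 3 windows. No 2 matches in them overlap. A match is a description of the letters and not a measured binding site, and 7 of the 9 genes had a window.

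FGA encodes the alpha chain, which carries the fibrinopeptide that thrombin removes first. The untreated libraries held 22 and 24 counts of it, or 2.45 and 2.42 CPM, the lowest values of the 15 groups. All 14 other groups had both libraries above both untreated ones. FGA was selected on its rise over these same untreated libraries, so their low place is not independent of that choice. The same limit holds for every comparison of FGA with untreated cells. Its group means spanned 14.7-fold, and the highest libraries were those of MS023 at 4 days, with 33.5 and 38.1 CPM (472 and 535 counts).

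With GSK591 alone FGA read 10.2 and 9.88 CPM on day 2, 20.7 and 20.9 CPM on day 4, then 5.11 and 8.04 CPM on day 7. Each of these times stood above the untreated libraries, with 4 days highest and 7 days lowest. The log2 fold changes against untreated cells were 2.04 (SE 0.226, adjusted p = 5.65e-08) at 2 days, 3.09 (SE 0.201, adjusted p = 1.63e-16) at 4 days and 1.42 (SE 0.244, adjusted p = 2.86e-05) at 7 days. With MS023 alone FGA read 20.3 and 19.8 CPM on day 2, 33.5 and 38.1 CPM on day 4, then 14.1 and 17.1 CPM on day 7. The time course had the same order as with GSK591, and the libraries of the 3 times did not overlap. The log2 fold changes were 3.04 (SE 0.202, adjusted p = 1.04e-15) at 2 days and 3.87 (SE 0.190, adjusted p = 2.88e-21) at 4 days. At 7 days the value that selected FGA was 2.67, given without a test. The 2, 4 and 7 day values were not tested against each other.

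At the matched dose FGA was lower with GSK591 than with MS023. The log2 difference was -0.996 at 2 days (SE 0.163, adjusted p = 7.74e-05) and -0.78 at 4 days (SE 0.137, adjusted p = 7.59e-05). At 7 days it was -1.26, given without a test, and both GSK591 libraries lay below both MS023 libraries at each of the 3 times.

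Dex alone took FGA to 6.12 and 6.70 CPM at 15 min and to 8.93 and 7.69 CPM at 3 h. Both times lay above the untreated libraries, by log2 fold changes of 1.39 (SE 0.236, adjusted p = 1.06e-04) and 1.77 (SE 0.230, adjusted p = 5.97e-08). FGA was the gene of the 7 that had already risen at 15 min. With GSK591 added for the 3 h, FGA stood at 8.17 and 7.38 CPM, a log2 difference from Dex alone of -0.10 with a 95% interval from -0.47 to 0.27. With MS023 added it stood at 8.86 and 12.4 CPM, a log2 difference of 0.36 with an interval from 0.00041 to 0.72 (adjusted p = 0.355), and the libraries overlapped those of Dex alone.

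Following GSK591, Dex for 15 min took FGA to 17.1 and 17.0 CPM, above the 5.11 and 8.04 CPM of GSK591 alone (log2 fold change 1.39, SE 0.181, adjusted p = 3.78e-07). At 3 h it stood at 11.6 and 11.1 CPM, a log2 fold change over GSK591 alone of 0.80 (SE 0.189, adjusted p = 0.00248). Without the first library of GSK591 at 7 days, which had the lower FGA value, the 3 h change was 0.50 with an adjusted p of 0.233. For FGA the GSK591 by Dex interaction at 3 h was -0.97, with a 95% interval from -1.58 to -0.36 and an adjusted p of 0.202. This interaction contains the untreated libraries over which FGA was selected, so it is not independent of that choice.

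Following MS023, Dex for 15 min took FGA from 14.1 and 17.1 CPM to 29.8 and 29.2 CPM (log2 fold change 0.92, SE 0.139, adjusted p = 1.20e-05). With total counts as the scaling this change was 0.78 with an adjusted p of 0.155. At 3 h the libraries had 17.1 and 18.5 CPM, which overlapped MS023 alone. The log2 fold change at 3 h was 0.19 with a 95% interval from -0.10 to 0.48. The 15 min and 3 h changes both start from the MS023 libraries on which FGA was selected, so neither is independent of that choice. Both 15 min libraries lay above both 3 h libraries after either inhibitor, while without an inhibitor the 3 h libraries were the higher ones. The difference between the response of FGA to Dex at 3 h after MS023 and that without it was -1.58 on the log2 scale, given without a test because it contains the comparison on which FGA was selected.

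**Figure D2:**
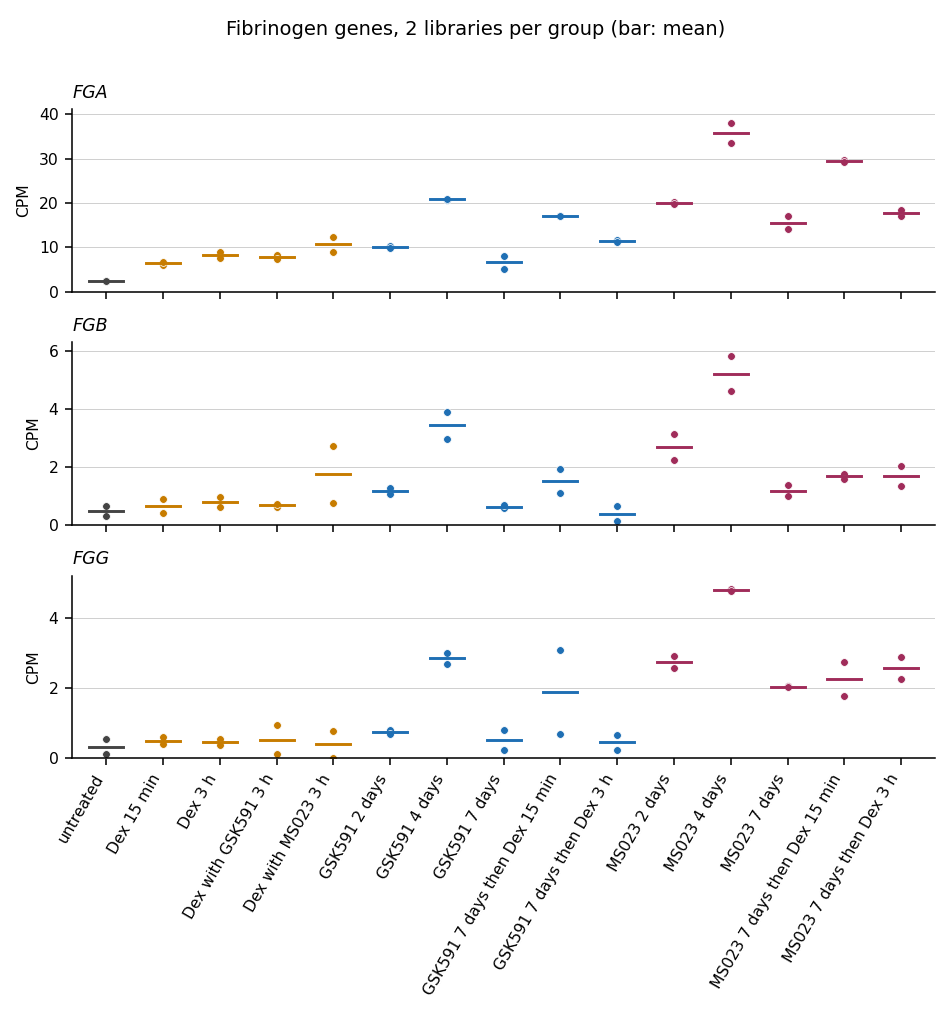
CPM (y axes) of FGA, FGB and FGG in the 15 groups (x axis), with 1 point per library and a bar at the mean of 2. In all 3 genes MS023 at 4 days is highest, with FGA libraries at 33.5 and 38.1 CPM, and GSK591 is higher at 4 days than at 2 or 7 days.

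FGB, the beta chain gene, was read at far lower depth, with 1 to 82 counts per library. The untreated libraries had 6 and 3 counts (0.667 and 0.302 CPM). MS023 at 4 days had 65 and 82 counts (4.62 and 5.84 CPM), the highest of the 15 groups, and GSK591 at 4 days had 31 and 39 counts (2.98 and 3.91 CPM). Neither pair overlapped the untreated libraries or each other. The log2 fold changes against untreated cells were 3.42 with MS023 (SE 0.480, adjusted p = 4.93e-07) and 2.82 with GSK591 (SE 0.515, adjusted p = 4.96e-05) at 4 days.

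At 2 days FGB had 23 and 34 counts with MS023, above the untreated libraries by 2.47 on the log2 scale (SE 0.531, adjusted p = 9.71e-04). Without the second untreated library that change was 2.00 with an adjusted p of 0.0525. With GSK591 at 2 days it had 8 and 11 counts, a log2 fold change of 1.28 (adjusted p = 0.248). At 7 days it had 5 and 5 counts with GSK591 (log2 fold change 0.38, adjusted p = 0.794) and 14 and 19 counts with MS023 (log2 fold change 1.29, not tested). FGB therefore followed the same order of times as FGA, with 4 days highest in both inhibitors.

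FGB did not pass the test between the inhibitors at any time. The GSK591 minus MS023 differences were -1.19 (95% interval -2.12 to -0.27), -0.60 (-1.28 to 0.078) and -0.91 (-2.07 to 0.25) on the log2 scale at 2, 4 and 7 days. Under Dex alone FGB had 4 and 9 counts at 15 min and 9 and 5 counts at 3 h, which overlapped the untreated libraries. Dex with MS023 had 7 and 28 counts, and this split ran with the low agreement of these 2 libraries over all genes. Without its first library, the FGB difference from Dex alone was 1.76 with an adjusted p of 0.0186, against 1.16 and 0.294 with both. After GSK591, Dex for 15 min gave 8 and 20 counts and Dex for 3 h gave 6 and 1. After MS023 these were 23 and 19 counts at 15 min and 28 and 18 counts at 3 h, and none of these passed against the inhibitor alone.

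FGG, the gamma chain gene, was read 5 times and 1 time in untreated cells (0.556 and 0.101 CPM). It had 68 and 67 counts after 4 days of MS023 (4.83 and 4.77 CPM), the highest of the 15 groups. GSK591 at 4 days followed with 28 and 30 counts (2.69 and 3.01 CPM), and MS023 at 2 days with 30 and 28 counts (2.93 and 2.58 CPM). These 3 groups lay wholly above the untreated libraries. The log2 fold changes were 3.87 (SE 0.681, adjusted p = 2.05e-04), 3.11 (SE 0.746, adjusted p = 0.00359) and 3.07 (SE 0.747, adjusted p = 0.00723) in that order. With so few untreated counts the sizes moved with the libraries used, and for MS023 at 4 days they ran from 3.09 to 5.42 as each library was left out. Without the second untreated library, GSK591 at 4 days gave 2.33 (adjusted p = 0.0780) and MS023 at 2 days gave 2.29 (adjusted p = 0.121). Without the first MS023 library at 2 days, that change was 2.96 (adjusted p = 0.0604).

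At 7 days FGG separated the inhibitors by level, with 2 and 6 counts in GSK591 (0.233 and 0.804 CPM) and 29 and 28 counts in MS023 (2.05 and 2.03 CPM). The libraries did not overlap, and the GSK591 minus MS023 difference was -2.002 (95% interval -3.49 to -0.51, adjusted p = 0.0796). Without the filter on low counts that difference passed, with an adjusted p of 0.00509. At 2 days the difference was -1.87 (95% interval -3.21 to -0.53, adjusted p = 0.140) and at 4 days -0.75 (95% interval -1.68 to 0.18, adjusted p = 0.418). Under Dex alone FGG had 4 and 6 counts at 15 min and 5 and 3 at 3 h, overlapping the untreated libraries. After GSK591, Dex for 15 min gave 5 and 32 counts. Without the first of these libraries the change over GSK591 alone was 2.58 with an adjusted p of 0.0321, against 1.98 and 0.211 with both. Dex with MS023 had 0 and 8 counts, and a count of 0 allows up to 3 counts, or 0.328 CPM in that library.

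The 3 fibrinogen genes had Pearson's r of 0.808 (FGA with FGB), 0.873 (FGA with FGG) and 0.860 (FGB with FGG) across the 15 group means of log2(CPM + 0.5). These are descriptions, since the points share the same libraries, depth and controls. FGA took between 66.7% and 97% of the fibrinogen counts of a library. Of 14 neighbouring pairs of groups in the order of FGA means, 7 had overlapping libraries, against 12 for FGB and 13 for FGG. For FGA the order ran from untreated cells through Dex at 15 min, GSK591 at 7 days, Dex with GSK591 and Dex at 3 h, where only the first step was free of overlap. In the upper part MS023 at 7 days followed by Dex for 3 h, MS023 at 2 days, GSK591 at 4 days, MS023 at 7 days followed by Dex for 15 min and MS023 at 4 days stood in rising order without overlap. In bulk samples, more cells transcribing a gene and more transcription per cell cannot be told apart.

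Genes that flank the fibrinogen genes were looked at in 4 comparisons. PLRG1, a splicing factor gene 12.5 kb before FGB, averaged 2.75 ± 0.107 CPM (SD, n = 2) without treatment and 3.24 ± 0.659 CPM after 4 days of MS023, a log2 fold change of 0.24 (adjusted p = 0.699). LRAT, a retinol esterification gene 14.0 kb beyond FGG, had a log2 fold change of 1.40 (adjusted p = 0.217) and DCHS2 one of 0.80 (adjusted p = 0.731) there. Neither passed in Dex at 3 h, in GSK591 at 7 days or in Dex for 3 h after MS023, and PLRG1 did not either. Among 11114 other genes averaging 5 CPM or more, PELI1 (r = 0.884), TGFBR2 (0.880), SLC12A2 (0.840), KCNK5 (0.838) and MTUS1 (0.827) had the profiles most like the mean fibrinogen profile over the 15 group means. TGFBR2, a receptor of TGF-beta, averaged 11.8 CPM in untreated cells and 22.6 CPM after 4 days of MS023.

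SERPINA3 (alpha-1-antichymotrypsin, an inhibitor of neutrophil cathepsin G) lies at 94612377 to 94624055 on the plus strand of chromosome 14 (ENSG00000196136.17, 5 exonic blocks). Exons of AL049839.2 on the same strand overlap 31.8% of its exonic length, so its counts are uncertain. It was barely transcribed, with 1 to 16 counts per library. After 7 days of GSK591 it had 2 and 2 counts (0.233 and 0.268 CPM). Dex after GSK591 gave 9 and 15 counts at 15 min (1.23 and 1.44 CPM) and 9 and 16 counts at 3 h (0.993 and 1.83 CPM). These 4 libraries were the highest of the 30. The rise at 3 h was 2.44 on the log2 scale (SE 0.824, adjusted p = 0.0418) and that at 15 min was 2.38 (adjusted p = 0.130). The 3 h call was lost without the filter on low counts (adjusted p = 0.0739) and when any 1 of the 4 libraries was left out (adjusted p 0.0546 to 0.345).

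Without an inhibitor SERPINA3 had 6 and 7 counts after 15 min of Dex and 3 and 2 in untreated cells, which do not overlap, but the log2 fold change of 1.25 did not pass (adjusted p = 0.851). At 3 h it had 5 and 1 counts. After MS023 Dex gave 7 and 3 counts at 15 min and 6 and 1 at 3 h, against 1 and 5 with MS023 alone, and the groups overlapped. The GSK591 by Dex interaction at 3 h was 2.10 with a 95% interval from -0.61 to 4.82 (adjusted p = 0.705). The authors' deposited table gives SERPINA3 a log2 fold change of 2.16 against untreated cells in GSK591 followed by Dex for 3 h (adjusted p = 6.91e-04) and 1.40 at 15 min (adjusted p = 0.0191). Its RefSeq promoter window, on chromosome 14, held 2 glucocorticoid receptor half-sites, from -90 and from -85, which overlap by their outermost base. This half-site occurred in 12.4% of all windows. It was also in the CFB window, from -43, and was absent from the fibrinogen windows. The most similar profile was that of SOD2 (r = 0.907 over 15 group means), the mitochondrial superoxide dismutase gene.

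SERPINA1 (alpha-1-antitrypsin, the main inhibitor of neutrophil elastase) lies 221.7 kb before SERPINA3, at 94376747 to 94390693 on the minus strand (ENSG00000197249.13). It had 0 to 12 counts per library, 99 in all, and stood at 0 in 8 of 30 libraries, where a count of 0 allows up to 3 counts. The libraries with the most counts were the first ones of MS023 for 7 days followed by Dex for 3 h (12 counts) and of MS023 at 4 days (10 counts), whose second libraries had 5 each. Untreated cells had 2 and 0 counts and Dex at 3 h had 0 and 0. At this depth no test was made. The authors' deposited tables give SERPINA1 an adjusted p in 3 comparisons other than MS023 at 7 days, the lowest being 0.281.

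C3 (complement component 3, on which all activation pathways converge) lies at 6677704 to 6730562 on the minus strand of chromosome 19 (ENSG00000125730.16, 41 exonic blocks). None of its exonic length overlaps another gene. It had 10 and 14 counts in untreated cells (1.11 and 1.41 CPM) and its group means spanned 18.0-fold, the widest ratio of the 7 testable genes. The highest libraries were GSK591 for 7 days followed by Dex for 3 h, with 200 and 204 counts (22.1 and 23.4 CPM).

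With GSK591 alone C3 read 2.96 and 1.38 CPM on day 2, 5.09 and 4.01 CPM on day 4, then 7.90 and 7.77 CPM on day 7. In contrast to the fibrinogen genes, the 7 day libraries were highest, although the times were not tested against each other. The log2 fold changes were 0.74 (adjusted p = 0.334) at 2 days, 1.84 (SE 0.348, adjusted p = 9.66e-05) at 4 days and 2.62 (SE 0.330, adjusted p = 5.64e-08) at 7 days. MS023 alone gave 2.35 and 1.94 CPM, 3.06 and 2.78 CPM, and 2.12 and 2.17 CPM at the same times. The log2 fold changes with MS023 were 0.75 (adjusted p = 0.237) at 2 days, 1.19 (SE 0.360, adjusted p = 0.0175) at 4 days and 0.76 (not tested) at 7 days. The 4 day call was lost when any 1 of the 4 libraries was left out (adjusted p 0.0513 to 0.172) and with DESeq2 (adjusted p = 0.0510).

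C3 was higher with GSK591 than with MS023 at 7 days, by 1.86 on the log2 scale (SE 0.278, adjusted p = 2.60e-06). With total counts as the scaling the difference was 0.82 (adjusted p = 0.0272), where the median of all genes stood at -1.07. At 4 days the difference was 0.64 (95% interval 0.085 to 1.20, adjusted p = 0.189) and at 2 days -0.01 (95% interval -0.75 to 0.73). FGA was on the opposite side of this comparison, lower with GSK591 at 2 and 4 days.

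Dex for 3 h took C3 to 3.51 and 3.79 CPM, a log2 fold change of 1.51 (SE 0.369, adjusted p = 0.00317). Without the first untreated library it was 1.36 with an adjusted p of 0.0607. At 15 min C3 had 1.09 and 1.80 CPM, which overlapped the untreated libraries (log2 fold change 0.18, adjusted p = 0.992). Adding GSK591 for the 3 h gave 4.29 and 4.06 CPM (log2 difference 0.20, 95% interval -0.40 to 0.79) and adding MS023 gave 5.69 and 3.62 CPM (0.34, 95% interval -0.24 to 0.93).

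Following GSK591, Dex took C3 from 7.90 and 7.77 CPM to 12.4 and 13.6 CPM at 15 min (log2 fold change 0.73, adjusted p = 0.0923) and 22.1 and 23.4 CPM at 3 h. The 3 h rise was 1.53 (SE 0.224, adjusted p = 8.99e-07). Following MS023, the libraries had 3.52 and 1.42 CPM at 15 min and 4.83 and 4.43 CPM at 3 h, and the 3 h rise was 1.10 (SE 0.279, adjusted p = 0.00423). The interactions with Dex at 3 h were 0.02 for GSK591 (95% interval -0.88 to 0.92, adjusted p = 0.998) and -0.41 for MS023 (95% interval -1.36 to 0.55, adjusted p = 0.854).

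TNFSF14, a TNF superfamily cytokine gene 7.1 kb from C3, had 0 and 0 counts in untreated cells, which allows up to 0.334 and 0.302 CPM. It had 9 and 3 counts after 3 h of Dex (adjusted p = 0.00837) and 11 and 14 counts after 7 days of GSK591 (adjusted p = 1.50e-04), and passed in both. GSK591 for 7 days followed by Dex for 3 h had 47 and 55 counts, its highest libraries as for C3. After 4 days of MS023 it had 1 and 2 counts (adjusted p = 0.293). GPR108, whose span reaches into that of C3 without sharing an exon, rose in all 4 comparisons examined, by 0.61 to 0.77, while TRIP10 rose with Dex at 3 h (0.96) and with Dex at 3 h after MS023 (0.94) and not with GSK591 at 7 days (0.02, adjusted p = 0.944). SPTBN5 had the profile most like that of C3 (r = 0.960 over 15 group means).

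CFB (complement factor B, the protease of the alternative pathway) lies at 31945650 to 31952084 on the plus strand of chromosome 6 (ENSG00000243649.8, 13 exonic blocks). Exons of C2 and AL645922.1 on the same strand overlap 45.5% of its exonic length, so its counts are uncertain. It had 51 to 117 counts per library, and its group means spanned 1.56-fold, from 5.88 ± 0.136 CPM (SD, n = 2) in MS023 for 7 days followed by Dex for 3 h to 9.17 ± 0.754 CPM in Dex with GSK591. Untreated cells had 7.45 and 7.96 CPM. CFB passed in 0 of the 18 tested comparisons, and all 14 neighbouring pairs of groups in the order of its means overlapped. With total counts as the scaling, CFB passed with MS023 at 2 days (0.73, adjusted p = 0.0384) and 4 days (0.76, adjusted p = 0.0243). Its GSK591 minus MS023 difference at 7 days then turned from 0.16 to -0.88 (adjusted p = 0.00658).

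The authors' deposited tables, which rest on another counting, differ from this for CFB. They give it a log2 fold change of 2.08 in MS023 at 4 days (adjusted p = 0.00304), 1.35 in GSK591 at 7 days (adjusted p = 0.0280) and 1.05 in GSK591 at 4 days (adjusted p = 0.0428). For the same comparisons the deposited counts gave 0.01 (95% interval -0.45 to 0.48), 0.01 (-0.48 to 0.51) and -0.13 (-0.61 to 0.36). The authors' mean for CFB was 12.4 against a mean count of 78.4, a ratio of 0.158, while for the other 8 genes that ratio ran from 0.401 (SAA1) to 2.89 (SERPINA3). C2, whose last exon ends inside CFB, rose with GSK591 at 7 days by 1.37 (adjusted p = 0.00704) from 1.53 ± 0.0324 to 3.98 ± 0.129 CPM (SD, n = 2). NELFE, which adjoins CFB on the opposite strand, passed in none of the 4 comparisons. The part of the different counting in these CFB values was not tested.

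LCN2 (lipocalin 2, which binds bacterial iron carriers) lies at 128149071 to 128153455 on the plus strand of chromosome 9 (ENSG00000148346.11, 8 exonic blocks), with no exonic overlap. It had 7 and 12 counts in untreated cells (0.779 and 1.21 CPM). With MS023 alone it had 11 and 26 counts on day 2, 31 and 26 on day 4, then 41 and 45 on day 7 (2.90 and 3.26 CPM). The 4 and 7 day libraries lay above the untreated ones, with a log2 fold change at 4 days of 1.01 (95% interval 0.084 to 1.93, adjusted p = 0.138). At 7 days it was 1.61, given without a test. With GSK591 it had 4 and 10 counts on day 2, 8 and 2 on day 4, then 18 and 19 on day 7 (2.09 and 2.55 CPM). The 7 day change was 1.20 (SE 0.483, adjusted p = 0.0911).

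At 4 days LCN2 was lower with GSK591 than with MS023, by -2.02 on the log2 scale (SE 0.521, adjusted p = 0.00877). Without the second GSK591 library, which had 2 counts, the difference was -1.39 with an adjusted p of 0.262, and without the first MS023 library it was -1.90 (adjusted p = 0.0750). DESeq2 gave it an adjusted p of 0.0742. At 2 days the difference was -1.01 (95% interval -2.05 to 0.028) and at 7 days -0.41 (95% interval -1.20 to 0.38), and neither passed.

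Following GSK591, LCN2 had 18 and 19 counts without Dex, 7 and 12 after 15 min of Dex (log2 fold change -1.10, adjusted p = 0.282) and 5 and 6 after 3 h (0.551 and 0.688 CPM). The 15 min change did not pass and the 3 h change did, with a log2 fold change of -1.88 (SE 0.536, adjusted p = 0.0136). It missed the threshold with DESeq2 (adjusted p = 0.0722), with total counts as the scaling (0.0593), and without the second GSK591 library (0.0947) or either Dex library (0.116 and 0.0683). Without an inhibitor LCN2 had 3 and 4 counts after 3 h of Dex, below both untreated libraries, a log2 fold change of -1.30 (95% interval -2.64 to 0.035, adjusted p = 0.224). After MS023, Dex for 15 min gave 31 and 52 counts and Dex for 3 h gave 17 and 29, a log2 fold change at 3 h of -0.86 (95% interval -1.62 to -0.10, adjusted p = 0.147). The 3 h libraries lay below the libraries without Dex in all 3 settings. The interactions were -0.58 (95% interval -2.39 to 1.23) with GSK591 and 0.44 (95% interval -1.13 to 2.02) with MS023. Of 26 neighbours by position of the 9 genes, 15 were testable: 3 rose with Dex at 3 h, 3 with GSK591 at 7 days and 2 with Dex at 3 h after MS023, and with MS023 at 4 days GPR108 rose and DNM1, near LCN2, fell by 0.44 (adjusted p = 0.00650). In those comparisons 10.5%, 13.2%, 11.1% and 14.2% of all genes were called. ZXDA had the profile most like that of LCN2 (r = 0.933 over 15 group means).

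**Figure D3:**
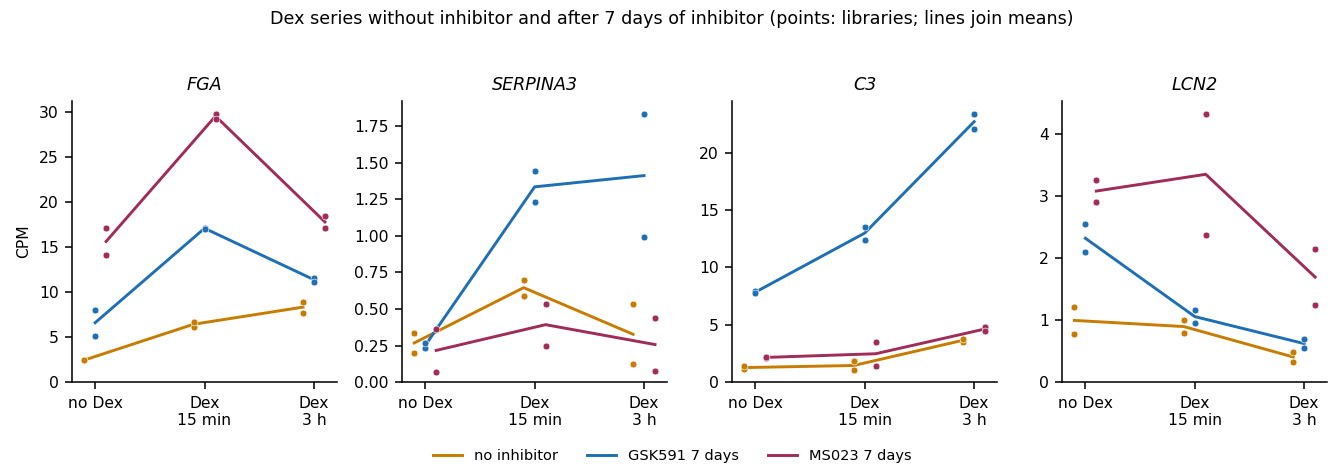
CPM (y axes) of FGA, SERPINA3, C3 and LCN2 without Dex and after 15 min and 3 h of Dex (x axes), without inhibitor and after 7 days of GSK591 or MS023. Points are libraries and lines join the means of 2. C3 climbs to 22.1 and 23.4 CPM after GSK591, FGA is highest at 15 min after either inhibitor, and LCN2 is lower at 3 h than without Dex in each series.

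SAA1 (serum amyloid A1, an acute phase apolipoprotein) lies at 18266174 to 18269977 on the plus strand of chromosome 11 (ENSG00000173432.11), and RNA5SP334 overlaps 6.41% of its exonic length. It had 0 to 9 counts per library, 120 in all, and was at 0 in 2 libraries. Untreated cells had 3 and 8 counts, and the highest libraries were GSK591 for 7 days followed by Dex for 3 h (9), Dex with GSK591 (8) and the second untreated library (8). MS023 at 7 days had 1 and 3 counts, the lowest group mean. SAA1 was not tested, and SAA2 and SAA4, near copies of it in the same cluster, could share reads with it.

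**Figure D4:**
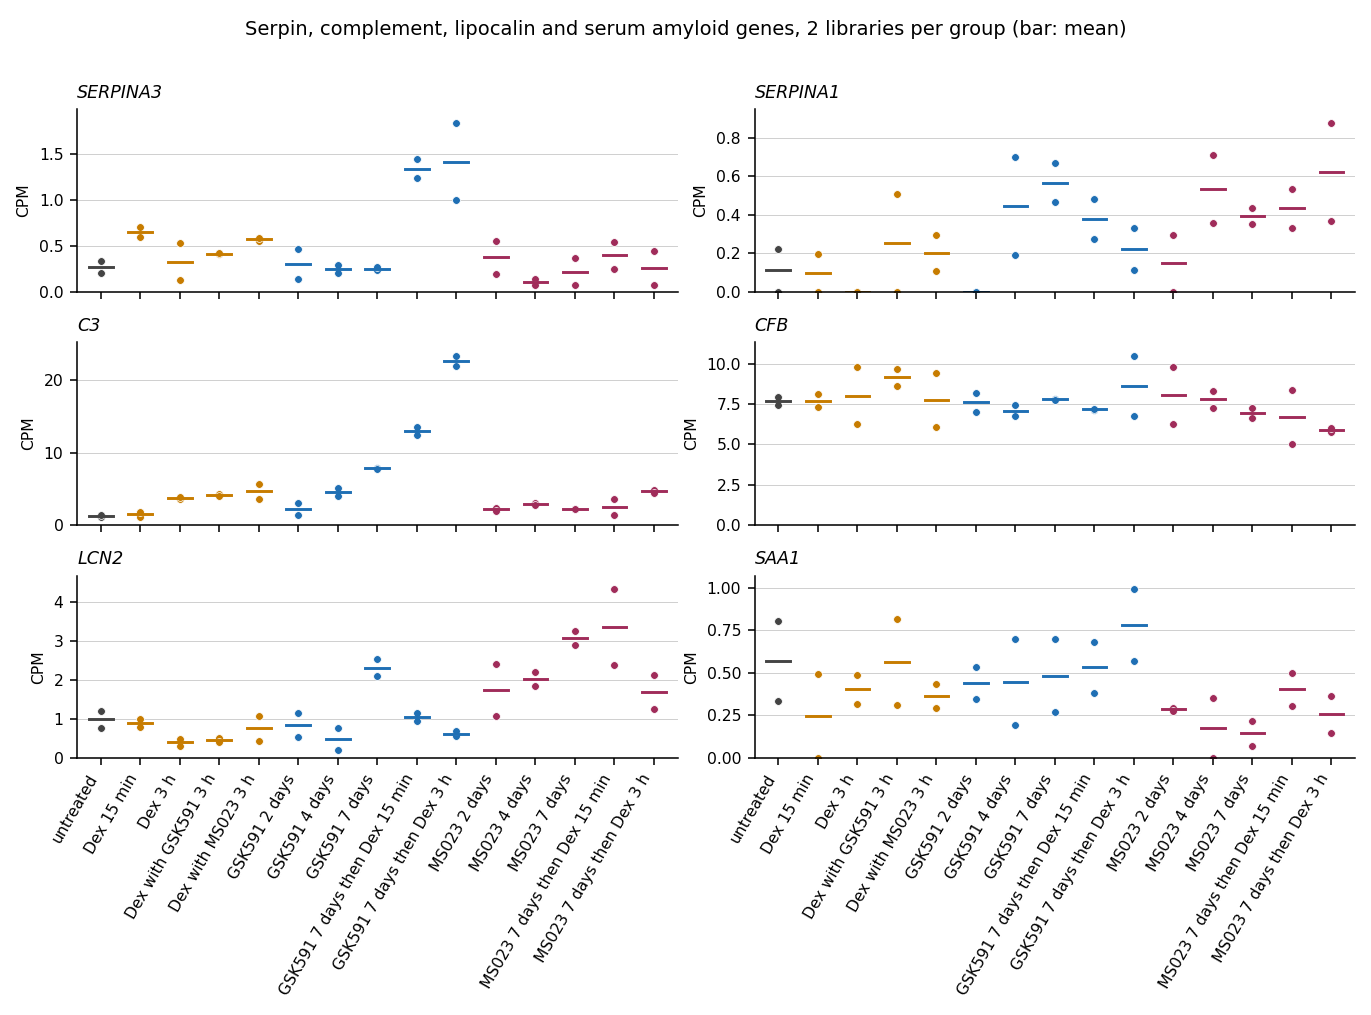
CPM (y axes) of SERPINA3, SERPINA1, C3, CFB, LCN2 and SAA1 in the 15 groups (x axes), with 1 point per library and a bar at the mean of 2. The y axes differ between genes. C3 and SERPINA3 are highest in GSK591 followed by Dex for 3 h, LCN2 is highest in MS023 at 7 days, alone or followed by Dex for 15 min, and CFB stays between 4.99 and 10.5 CPM.

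The authors' deposited tables compare each treated group with untreated cells. For MS023 at 4 days they give log2 fold changes of 4.13 for FGA, 3.84 for FGB and 4.81 for FGG, the largest of these genes among the 14 tables. For GSK591 at 4 days they give 3.29, 2.84 and 3.39. For GSK591 at 2 days they list FGB (1.23, adjusted p = 0.0200) and FGG (1.68, adjusted p = 0.0157) below 0.05, which did not pass from the deposited counts. For C3 the authors' deposited table gives 2.63 in GSK591 at 7 days and 4.20 when Dex for 3 h followed. For LCN2 the authors' deposited tables give an adjusted p below 0.05 in 1 of the 13 tables other than MS023 at 7 days, namely MS023 for 7 days followed by Dex for 15 min (1.10, adjusted p = 0.0332). For all 14 tables the control libraries are the same, so their values are not independent of each other.

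Genes of the same pathways, taken from lists chosen with earlier results of these data known, were counted in 4 comparisons. The share of all 22919 genes called in either direction, against which each count stands, was 10.5% of all genes with Dex at 3 h, 13.2% with GSK591 at 7 days, 14.2% with MS023 at 4 days and 11.1% with Dex at 3 h after MS023. Of 18 other acute phase genes 9 were testable. CP (ceruloplasmin, a copper carrier) rose from 2.49 ± 0.249 to 10.8 ± 0.135 CPM (SD, n = 2) after 4 days of MS023, a log2 fold change of 2.11 (adjusted p = 7.88e-10), and by 0.80 after 7 days of GSK591 (adjusted p = 0.0355). HAMP (hepcidin, the iron hormone) fell by 1.65 with MS023 at 4 days (adjusted p = 1.76e-06) and by 0.80 with GSK591 at 7 days (adjusted p = 0.0209). In counts, 1 rose and 0 fell with Dex at 3 h, 1 rose and 1 fell with GSK591 at 7 days, 2 rose and 2 fell with MS023 at 4 days, and 1 rose and 0 fell with Dex at 3 h after MS023.

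Of 31 other complement genes 17 were testable, and in each of the 4 comparisons 3 of them rose, where 10.5%, 13.2%, 14.2% and 11.1% of all genes were called in that order. GSK591 at 4 days, outside those 4, had 9 of the 17 higher and 1 lower against 17.2% of all genes called, and a median log2 fold change of 0.60. With GSK591 at 7 days these were C2, C1S (1.14, adjusted p = 2.12e-05) and C1R (1.11, adjusted p = 7.02e-07), the proteases of the classical pathway. With MS023 at 4 days CFP (properdin) rose by 0.99 (adjusted p = 0.00667), from 2.68 ± 0.336 to 5.37 ± 0.159 CPM (SD, n = 2), and CFD (factor D) by 0.65 (adjusted p = 0.00715). CD59, a membrane inhibitor of complement lysis, was the 1 gene that fell in each of those 2 comparisons, by 0.54 (adjusted p = 0.00476) and 1.14 (adjusted p = 1.17e-08). The median log2 fold change of the 17 was 0.33 with GSK591 at 7 days and 0.25 with MS023 at 4 days, where the median over all genes was -0.0049 and -0.0011. Of 23 coagulation genes 15 were testable. THBD (thrombomodulin) rose with Dex at 3 h by 1.40 (adjusted p = 1.44e-14) and F3 (tissue factor) by 1.18 (adjusted p = 0.00115), while TFPI, the inhibitor of tissue factor, fell by 1.70 (adjusted p = 0.00163). F12 rose in GSK591 at 7 days (0.62, adjusted p = 0.0158) and in MS023 at 4 days (0.91, adjusted p = 9.65e-05). The coagulation counts were 2 higher and 1 lower with Dex at 3 h, 2 and 0 with GSK591 at 7 days, 3 and 0 with MS023 at 4 days, and 1 and 1 with Dex at 3 h after MS023, beside 10.5%, 13.2%, 14.2% and 11.1% of all genes. With GSK591 at 4 days 5 of the 15 were higher and 0 lower, beside 17.2% of all genes.

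Of 13 negative acute phase and other liver secretory genes 7 were testable, and RBP4 (the retinol carrier) and AMBP (the precursor of bikunin) were the 2 that rose with either inhibitor. RBP4 rose by 1.84 with GSK591 at 7 days (adjusted p = 2.36e-04) and by 2.03 with MS023 at 4 days (adjusted p = 1.62e-05), and AMBP by 1.31 (adjusted p = 0.00101) and 0.95 (adjusted p = 0.0147). None of the 7 changed with Dex at 3 h, and 2 fell with Dex at 3 h after MS023 (RBP4 and VTN). Of all genes, 13.2% were called with GSK591 at 7 days and 14.2% with MS023 at 4 days. With Dex at 3 h 10.5% were, and with Dex at 3 h after MS023 11.1%. The hepatocyte markers summed to 2.55 CPM in untreated cells, 3.81 CPM in MS023 at 4 days, 4.84 CPM in MS023 at 7 days, 3.19 CPM in GSK591 at 7 days and 1.67 CPM in Dex at 3 h. Their part in the fibrinogen values was not tested.

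All 20 listed transcription factors of acute phase promoters were testable. With Dex at 3 h CEBPB rose by 1.81 (adjusted p = 2.01e-15), from 33.6 ± 2.05 to 118 ± 7.94 CPM (SD, n = 2), and CEBPD by 1.03 (adjusted p = 8.96e-05), while RELB, of the NF-kappaB family, fell by 1.99 (adjusted p = 3.81e-08) and NFKB2 fell by 1.79 (adjusted p = 4.02e-14). With GSK591 at 7 days CEBPD rose by 0.99 (adjusted p = 1.59e-04) and CEBPB by 0.49 (adjusted p = 0.00742), and HNF4A fell by 0.52 (adjusted p = 0.0393). With MS023 at 4 days the liver factors FOXA3 (3.14, adjusted p = 1.92e-09), ONECUT1 (1.52, adjusted p = 4.36e-04) and FOXA2 (1.31, adjusted p = 2.01e-10) had the 3 largest rises, and 8 of the 20 rose and 2 fell. FOXA3 went from 0.933 ± 0.533 to 8.46 ± 0.189 CPM (SD, n = 2). The counts were 3 higher and 4 lower with Dex at 3 h, 2 and 2 with GSK591 at 7 days, and 3 and 6 with Dex at 3 h after MS023. Beside them stood 10.5%, 13.2% and 11.1% of all genes, and 14.2% for MS023 at 4 days.

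Of 27 genes listed for interleukin-6 family signalling 24 were testable. The list, and so its counts, also took in the interleukin-1 genes IL1A, IL1B, IL1R1 and IL1RN. With Dex at 3 h the receptor gene IL6R rose by 1.34 (adjusted p = 1.21e-08) and the feedback inhibitor SOCS1 by 1.51 (adjusted p = 1.30e-05), and the ligand genes LIF and OSM fell by 0.95 (adjusted p = 1.53e-04) and 1.84 (adjusted p = 0.00730). With MS023 at 4 days LIF fell by 1.00 (adjusted p = 2.88e-05), and IL1R1 (0.78), LIFR (0.63) and SOCS1 (0.63) rose. With GSK591 at 7 days CISH (1.63, adjusted p = 0.00285) and SOCS1 (0.65, adjusted p = 0.0328) rose, and CLCF1 fell by 0.64 (adjusted p = 0.00633). In counts, 5 rose and 3 fell with Dex at 3 h, 2 and 2 with GSK591 at 7 days, 4 and 1 with MS023 at 4 days, and 7 and 2 with Dex at 3 h after MS023, beside 10.5%, 13.2%, 14.2% and 11.1% of all genes.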

How the data were processed

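PRO-seq libraries from 30 samples in 15 groups of 2 were analysed from 1 deposited table of raw counts per gene, made by the authors with featureCounts 2.0.1 of Subread on build hg38, per the submitters' processing notes. The aligner, the strand setting and the counted feature type are not given in the sources used here, and the gene identifiers match GENCODE 29. The deposited comparison tables of the authors hold a mean signal (normalized counts), log2 fold changes and adjusted p-values from DESeq2, per the file headers. By their means they rest on another counting, so their values are credited separately. Whether their fold changes were shrunk toward no change is not given. For FGB with Dex at 15 min they give 0.048 (SE 0.14), against 0.43 (SE 0.692) here. The sizes may therefore not be the same measure, and the part of shrinkage was not tested.

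Counts were tested with edgeR 4.0.16 (R 4.3.3, limma 3.58.1) by the quasi-likelihood test, with TMM scaling, filterByExpr (minimum count 10, minimum total 15) and 1 fit of all 15 groups with 15 residual degrees of freedom. Benjamini-Hochberg adjustment ran over 22919 genes with a threshold of 0.05. CPM use TMM library sizes, intervals are 95%, and a count of 0 is read as allowing 3 counts, counting error only. Counts were simulated for Dex at 3 h over 21382 genes, with 50 genes at each change, all drawn from genes averaging above 1 CPM. The fit called 96% at a log2 change of 2, 70% at 1, 50% at -1, 80% at -2 and 0.0236% of unchanged genes. These rates do not cover lower levels, such as SERPINA3 (mean 0.474 CPM) or FGB and FGG in untreated cells (0.485 and 0.328 CPM). Alternatives were 7 settings (DESeq2 1.42.0 among them) and leaving out each of 30 libraries. The members and gene lists were chosen with earlier results of these data known. Named were all 9 genes, and from each list the 3 largest called rises and falls in 4 comparisons (averaging 1 CPM or more), neighbours by position, and genes with the most similar profiles (averaging 5 CPM or more, pseudocount 0.5 CPM). Some genes that this rule names are not reported here.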

Additional observations from a re-analysis of the deposited data

How the results depend on the processing

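Under DESeq2 size factors, without mitochondrial and rRNA genes, and with the replicate block, each of 133 single-gene results kept its direction and its side of the threshold. The replicate numbers did not pair the samples: r between deviations ran from -0.451 to 0.487 over 105 pairs of groups, so the block is given only here. Scaling by total counts shifted the median of all genes by 0.675, 0.741 and 1.02 with MS023 at 2, 4 and 7 days and by -1.07 for GSK591 minus MS023 at 7 days. It gave 6 of 7 genes called with MS023 at 2 days, 0 with Dex at 15 min after MS023, and 5 of 6 for GSK591 against MS023 at 7 days, where it called 9228, 71 and 16029 of all 22919 genes, and turned CFB in the 7 day inhibitor comparison to -0.88. Without the filter, 2 genes were called with Dex at 15 min after GSK591 and 2 each for GSK591 against MS023 at 2 and 7 days. In these comparisons 523, 592 and 1986 of all 53080 genes were called. With the compared groups only, 2 each were called for GSK591 against MS023 at 2 and 7 days, beside 1106 of 18352 and 2960 of 19652 genes. DESeq2 called 2 with Dex at 3 h after GSK591, beside 1349 of 20149 genes. It called 1 for GSK591 against MS023 at 4 days, beside 669 of 21178. Leaving out 1 library changed how many of the genes were called in some comparisons. With Dex these were Dex at 3 h, Dex and MS023 against Dex, and Dex at 15 min and at 3 h after GSK591. With inhibitors alone they included MS023 at 2 and 4 days, GSK591 at 4 days, and GSK591 against MS023 at 4 days. The number called over all genes changed in these comparisons too. The cause of these changes was not tested. Counts under about 10 per library limit FGB, FGG, SERPINA3 and LCN2 most.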
